A study of Pyrus pyrifolia with 6 samples.

Results

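The genes described here are those of ethylene synthesis, ethylene signalling and the ethylene response factors in pear fruit skin. They were chosen by the gene descriptions in the deposited table alone. A gene was taken if its description names 1-aminocyclopropane-1-carboxylate, an ethylene receptor, ETHYLENE INSENSITIVE, an EIN3-binding protein, an ethylene-responsive transcription factor or an ethylene-response factor. Of 42933 listed genes, 253 met the rule. They comprise 44 synthesis genes, 24 signalling genes and 185 response factors.

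The study measured RNA in the skin of Pyrus pyrifolia fruit, cultivar Cuiguan, by RNA sequencing. Bagged fruit wore a single-layer white paper bag put on 20 days after full bloom and a double-layer yellow-white bag put on at 40 days. Untreated fruit of the same cultivar and orchard grew without bags. Trees of both groups were 6 years old. Fruit of both groups was sampled 95 days after full bloom, with 3 libraries a group. The labels call them biological replicates but do not give the number of fruits or trees behind each one, so p-values measure only the spread between these libraries.

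Plants make ethylene from S-adenosylmethionine in a pair of steps. ACC synthase makes 1-aminocyclopropane-1-carboxylate (ACC) and ACC oxidase turns ACC into ethylene. As known from Arabidopsis, receptors in the endoplasmic reticulum keep the pathway off through the kinase CTR1 when no ethylene is bound. When ethylene binds, EIN2 acts on the transcription factor EIN3 and its EIN3-like relatives, whose breakdown is driven by the EIN3-binding F-box proteins. Ethylene response factors (ERFs) are a large family of transcription factors with an AP2 domain, named after the first members found to respond to ethylene, and many of them respond to wounding, cold, drought or light instead. Ethylene drives ripening in many fruits, and pear cultivars differ in how much of it they make.

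Library totals were 16735371, 17905890 and 19546285 counts in bagged skin and 17136285, 19278100 and 15764049 in untreated skin. The first principal component held 46.8% of the variance and separated the groups, with untreated 3 nearest to the bagged libraries (scores of -50.3, -40.1 and -45.3 in bagged skin, 52.0, 59.8 and 24.0 in untreated skin). Skin and cuticle markers were present, with a count for 18 of 20 genes and 3 of 11 tested genes higher in bagged skin. Their summed level was 235 to 418 CPM (counts scaled to equal library size) in bagged skin and 137 to 168 CPM in untreated skin. Cork markers were lower in bagged skin for 9 of 11 tested genes, at a summed 26.9 to 60.0 CPM in bagged skin and 231 to 393 CPM in untreated skin. Phloem markers (0 of 7 tested genes called; 52.4 to 58.0 CPM in bagged skin, 48.6 to 118 CPM in untreated skin), flesh sugar markers (0 of 13; 920 to 1021 and 675 to 813 CPM) and xylem and stone cell markers (0 tested; 0.575 to 0.908 and 0.509 to 1.91 CPM) had no called gene. The share of these cell types in the ethylene results below was not tested, and in bulk skin fewer cells of a type and less RNA per cell cannot be told apart.

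Of the 253 genes, 62 had no count in any library and 121 had enough counts to be tested. With edgeR's quasi-likelihood test across all 25139 tested genes, called at a Benjamini-Hochberg adjusted p under 0.05, 3 ethylene genes rose and 7 fell in bagged skin. That is 8.26% of the tested members, against 2.67% of all tested genes (0.971% higher and 1.69% lower). By role, 9 of 86 tested response factors were called (3 higher, 6 lower), 1 of 16 tested synthesis genes (lower) and 0 of 19 tested signalling genes. The median log2 fold change, bagged over untreated, was 0.19 for tested response factors, 0.03 for signalling genes and -2.2e-05 for synthesis genes, beside -0.0094 for all tested genes. Of the 16 tested synthesis genes, 12 are ACC oxidase homologs, not known to form ethylene (median -0.02). The 1 called synthesis gene is such a homolog. Only 3 are ACC oxidases, with a median of 0.63 and a range of -3.71 to 1.14. Members were measured with a median standard error (SE) of 0.28 on the log2 scale against 0.17 for all tested genes. Each of the 10 calls was lost when at least 1 of the 6 libraries was left out, and leaving out bagged 1 ended all 10. Their fold changes kept their direction in every such fit. Calls over all genes also varied between these fits and are given further below.

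**Figure D1:**
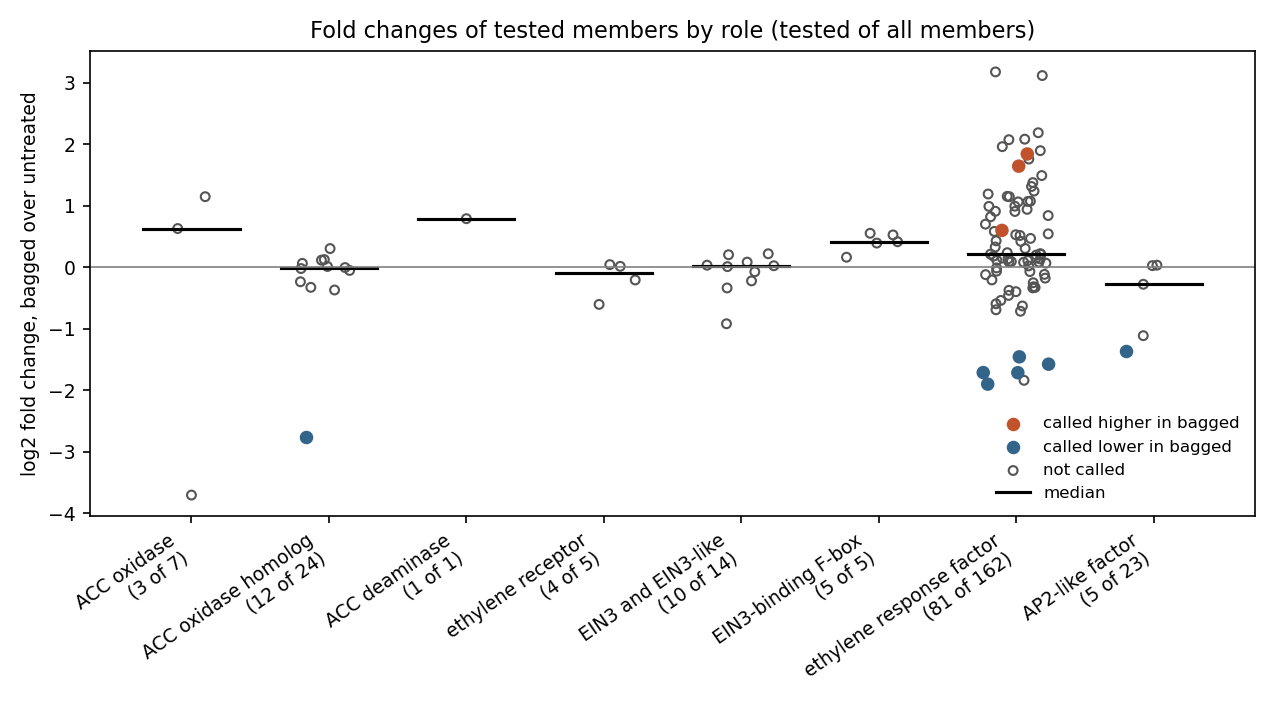
Log2 fold change (bagged over untreated) of every tested ethylene gene, 1 point a gene, arranged by role, with called genes marked. Black lines are medians. Signalling genes lie between -0.92 and 0.55 with no call, and the ERFs spread from -1.90 to 3.17.

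The ACC synthases, the first committed step, were close to undetected. The 12 genes held 76 counts in all, 5 had no count and none could be tested. Summed over the 12 genes, the libraries held 2, 10 and 35 counts in bagged skin and 4, 9 and 16 counts in untreated skin. The highest, LOC103933174, had 37 counts over the 6 libraries and LOC103951619 had 18. In FPKM, the authors' level per gene length, the 12 genes summed to 0.0687, 0.394 and 1.29 in bagged skin and 0.122, 0.381 and 0.598 in untreated skin. The groups overlap, and bagged 3 was the highest library. A difference in ACC synthase was not detectable at this depth.

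ACC oxidase, the ethylene-forming enzyme, had 7 genes, of which 3 were tested and none was called. The most abundant was LOC103954990 (scaffold NW_008988159.1, 249388 to 251122), with 57.4, 61.1 and 51.5 CPM in bagged skin and 13.4, 33.4 and 30.1 CPM in untreated skin. All bagged libraries lie above all untreated ones, and untreated 1 is the lowest. Its means were 56.7 ± 4.84 CPM in bagged skin and 25.6 ± 10.7 CPM in untreated skin (SD, n = 3 each), a log2 fold change of 1.14 ± 0.30 (SE) that missed the threshold in edgeR (adjusted p = 0.104). With DESeq2 the adjusted p was 0.00129, with limma-voom 0.0756 and with the replicate block in edgeR 0.0764. Without untreated 1 edgeR gave 0.0344, and leaving out any other library gave 0.109 to 0.230.

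ACC oxidase 1, LOC103948231 (scaffold NW_008988092.1, 978734 to 980579), lay the other way. It had 1.82, 0.687 and 0.418 CPM in bagged skin and 27.9, 4.48 and 5.45 CPM in untreated skin. The groups do not overlap, but untreated 1 stands far above the other untreated libraries. The untreated mean of 12.6 ± 13.3 CPM therefore has an SD larger than itself, against 0.974 ± 0.742 CPM in bagged skin (SD, n = 3 each). Its log2 fold change of -3.71 ± 0.87 (SE) was not called by edgeR (adjusted p = 0.0758), and the adjusted p ranged between 0.064 and 0.205 when 1 library was left out. It was called without the low-count filter (edgeR adjusted p = 0.0492) and with DESeq2 (0.00649), and not in limma-voom (0.23).

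ACC oxidase 2, LOC103946813, had 4.78, 2.92 and 2.98 CPM in bagged skin and 2.37, 1.53 and 3.04 CPM in untreated skin, groups that overlap (log2 fold change 0.63 ± 0.33 SE, edgeR adjusted p = 0.419). The other 4 ACC oxidase genes had 0 to 9 counts over all libraries. Summed over the 7 genes, the authors' FPKM were 53.9, 54.7 and 46.4 in bagged skin and 36.3, 33.3 and 32.1 in untreated skin. The bagged sums are the higher ones in every library, at 51.7 ± 4.61 in bagged skin and 33.9 ± 2.17 in untreated skin (SD, n = 3 each). In the means of single genes, LOC103954990 made up 47.9 FPKM in bagged skin and 21.6 FPKM in untreated skin, and ACC oxidase 1 made up 0.799 FPKM in bagged skin and 10.3 FPKM in untreated skin.

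**Figure D2:**
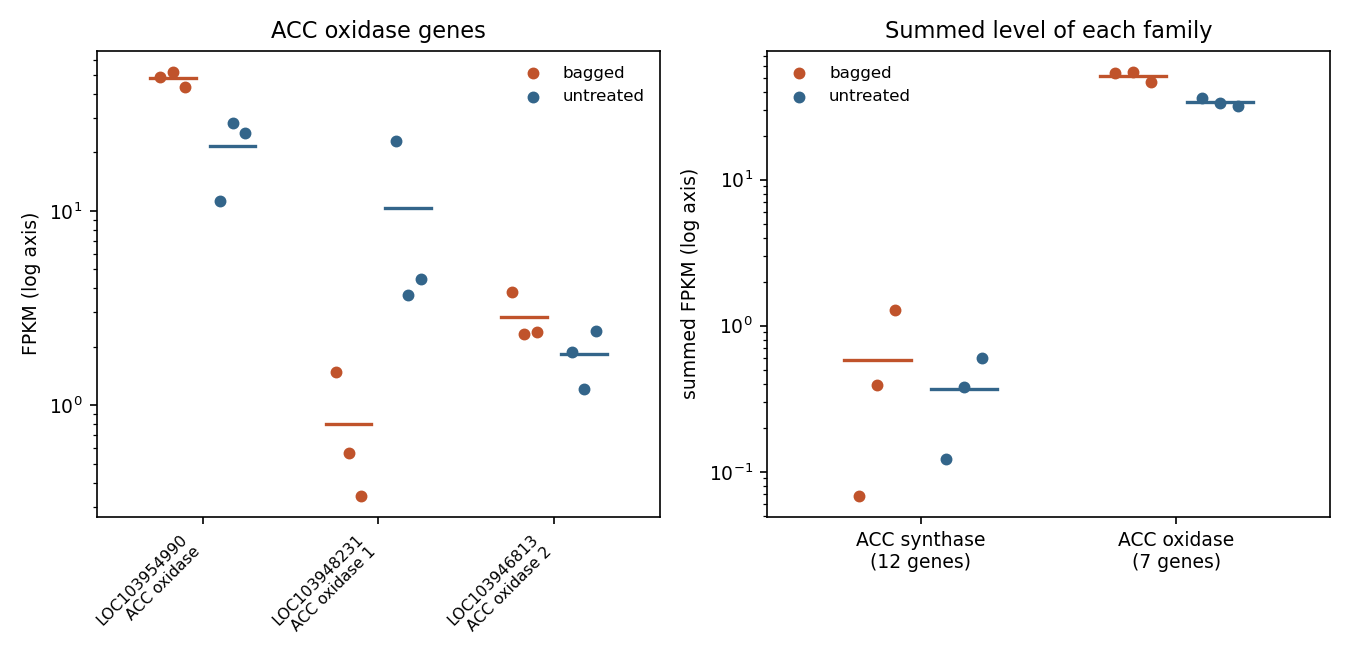
The authors' FPKM per library (log axis) of the 3 tested ACC oxidase genes, at left, and summed over the 12 ACC synthase and 7 ACC oxidase genes, at right, with bagged libraries left of untreated ones and group means as lines. ACC oxidase LOC103954990 lies above and ACC oxidase 1 below untreated skin in every bagged library, and the ACC synthase sums overlap near the bottom of the scale.

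The table also lists 24 ACC oxidase homologs, oxygenases named for their likeness to ACC oxidase and not known to form ethylene. Of these, 12 were tested, and 1 fell. It is homolog 4-like LOC103961663 (scaffold NW_008988253.1, 38101 to 40295), with 0.0605, 0.343 and 0.209 CPM in bagged skin and 1.45, 1.83 and 1.05 CPM in untreated skin. Every bagged library lies under every untreated one, on a total of 89 counts. With 1, 6 and 4 counts in bagged skin and 25, 36 and 17 in untreated skin, it passed the low-count filter only through untreated skin. The log2 fold change was -2.77 ± 0.53 (SE; edgeR adjusted p = 0.0416), and leaving out any 1 library ended the call (0.0586 to 0.132), as did limma-voom (0.0527).

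The homologs with the highest levels were not called. Homolog 4-like LOC103943059 had 116, 149.7 and 119 CPM in bagged skin and 142, 138 and 119.9 CPM in untreated skin (log2 fold change -0.06 ± 0.12 SE, edgeR adjusted p = 0.875). It overlaps a gene on the other strand, LOC103943062, with 130 counts, and whether the counting used strand is not given in the sources used here. Homolog 1-like LOC103967479 had 69.9, 72.5 and 64.7 CPM in bagged skin and 53.6, 73.9 and 71.1 CPM in untreated skin. Its neighbour LOC103967480, one of 5 homologs close together on scaffold NW_008988380.1, had 61.1, 67.4 and 55.3 CPM in bagged skin and 51.6, 61.3 and 57.3 CPM in untreated skin. All of these ranges overlap. Neighbouring copies can share reads, so the split between them is uncertain. Summed over the 24 homologs, the authors' FPKM was 269.7 ± 24.7 in bagged skin and 268.9 ± 15.4 in untreated skin (SD, n = 3 each).

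One gene is described as an enzyme that splits D-cysteine or ACC, LOC103941353. It had 5.27, 4.92 and 24.7 CPM in bagged skin and 6.60, 5.80 and 7.93 CPM in untreated skin. Only bagged 3 stands out, and the gene was not called (log2 fold change 0.79 ± 0.60 SE, edgeR adjusted p = 0.584). Without bagged 3 the log2 fold change was -0.41.

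Signalling genes showed no called change in bagged skin. None of the 19 tested genes reached an unadjusted p under 0.05 in edgeR, beside 4003 of all 25139 tested genes. DESeq2 called 0 of the 19. Receptor 2, LOC103967492, was the most abundant of 5 receptor genes, with 618, 609 and 324 CPM in bagged skin and 561, 589.9 and 643 CPM in untreated skin. Bagged 3 is the low library, and the others lie close together (log2 fold change -0.21 ± 0.23 SE, edgeR adjusted p = 0.717). Without bagged 3 the log2 fold change was 0.04.

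The other receptors were more even. LOC103956034 had 85.0, 90.3 and 90.4 CPM in bagged skin and 90.3, 83.2 and 85.2 CPM in untreated skin, with a log2 fold change of 0.04 ± 0.07 (SE; edgeR adjusted p = 0.857). LOC103965201 had 53.9, 57.1 and 53.7 CPM in bagged skin and 57.1, 54.3 and 52.0 CPM in untreated skin, with 0.01 ± 0.08 (SE; edgeR adjusted p = 0.966). Both overlap fully. Receptor 2-like LOC103940237, outside the naming rule and named after its values were seen, also had its lowest value in bagged 3 (16.5, 18.4 and 6.85 CPM in bagged skin, 13.1, 30.5 and 20.0 CPM in untreated skin). The fifth receptor gene, LOC103963673, held 4 counts. Scaled by library size alone, 0 of the 4 tested receptors had a fold change above 0, against 2 of 4 otherwise, so no direction can be given for them.

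EIN3 and its EIN3-like relatives, the transcription factors that carry the signal into the nucleus, had 14 genes, 10 tested, with a median log2 fold change of 0.01. LOC103933394 had 409, 392 and 280.0 CPM in bagged skin and 355, 373 and 332 CPM in untreated skin (log2 fold change 0.03 ± 0.14 SE, edgeR adjusted p = 0.95). LOC103946150 had 365, 311 and 293 CPM in bagged skin and 327, 329 and 299 CPM in untreated skin. LOC103946390 had 190.1, 167 and 163 CPM in bagged skin and 173, 181 and 163 CPM in untreated skin. Each of the 3 overlaps between groups, with means within 0.03 of each other on the log2 scale.

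The 5 EIN3-binding F-box genes, which target EIN3 for breakdown, all had a fold change above 0 and none was called. LOC103965573 was the only 1 whose groups did not overlap, and it was named after its values were seen. It had 112, 101 and 93.0 CPM in bagged skin and 84.7, 42.0 and 82.4 CPM in untreated skin (log2 fold change 0.55 ± 0.24 SE, edgeR adjusted p = 0.329). LOC103946701 had 357, 378 and 310.2 CPM in bagged skin and 325, 179.9 and 293 CPM in untreated skin.

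A further pair of F-box genes, LOC103953937 and LOC103958329, varied most between libraries. LOC103953937 had 379, 443 and 178 CPM in bagged skin and 217, 187 and 348 CPM in untreated skin. LOC103958329 had 237, 271 and 114 CPM in bagged skin and 208, 98.9 and 249.6 CPM in untreated skin. Bagged 3 is the lowest bagged library in both, and untreated 2 the lowest untreated one, as it was for all 5 genes. Their log2 fold changes were 0.41 ± 0.35 and 0.16 ± 0.39 (SE), and that of LOC103958329 turned negative without bagged 2 (-0.08) or untreated 2 (-0.14). Per gene length, the 5 genes summed to an authors' FPKM of 373 ± 94.3 in bagged skin and 286 ± 88.0 in untreated skin (SD, n = 3 each), with overlapping libraries. The within-group SD of log2(CPM + 0.5) had a median of 0.443 over these genes, against 0.191 over all tested genes.

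**Figure D3:**
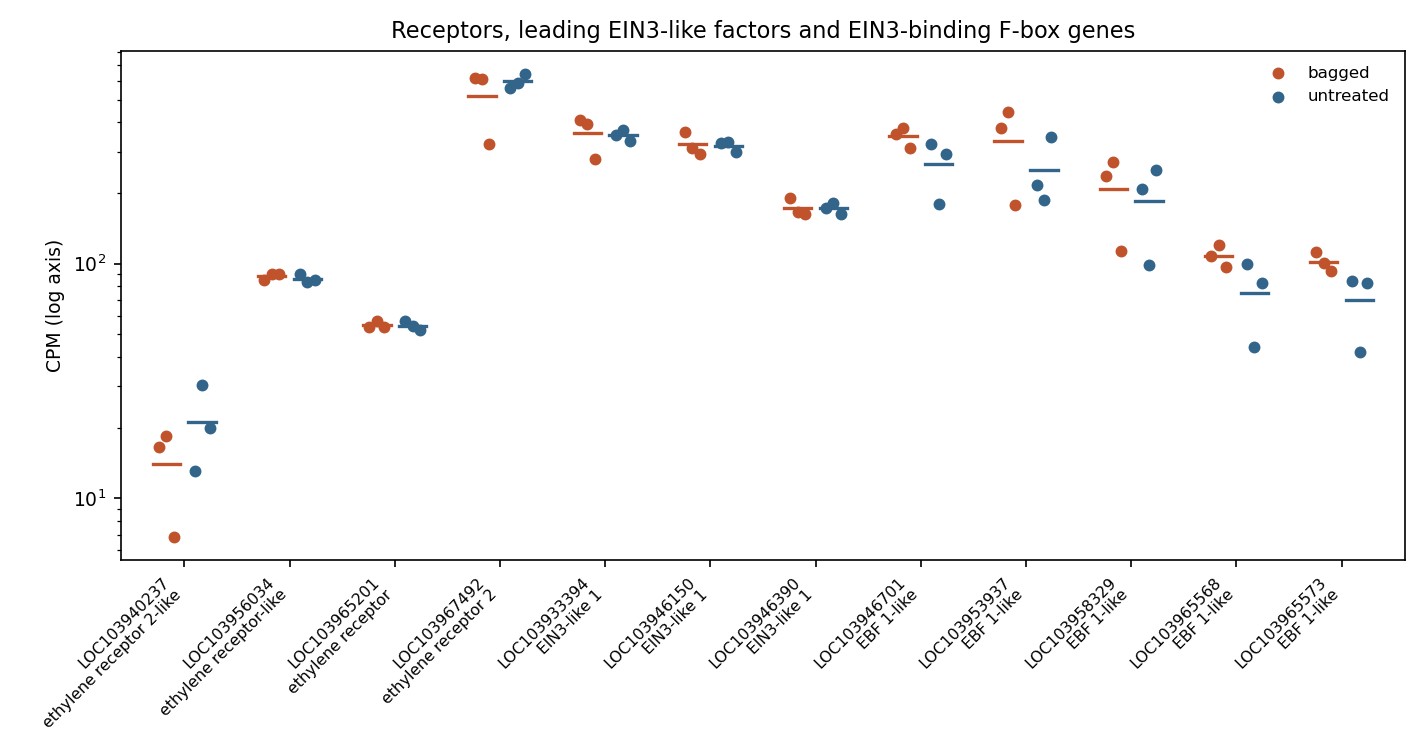
CPM per library (log axis) of the 4 tested receptor genes, the 3 EIN3-like genes with the highest levels and the 5 EIN3-binding F-box (EBF) genes, with bagged libraries left of untreated ones and group means as lines. Groups overlap for every gene plotted but LOC103965573, and bagged 3 is low for receptor 2, receptor 2-like, LOC103953937 and LOC103958329.

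Other genes of the pathway, found by description outside the rule, gave no edgeR call on the synthesis or signalling side. For comparison, 4003 of all 25139 tested genes had an unadjusted p under 0.05 in edgeR. On the synthesis side, which makes and recycles S-adenosylmethionine, 0 of 24 tested genes were called (median log2 fold change -0.01; 5 at an unadjusted p under 0.05 in edgeR; 1 called higher by DESeq2). On the signalling side 0 of 10 tested genes were called (median -0.02; 4 at an unadjusted p under 0.05). DESeq2 called 2 of those 10, both lower. One is the kinase gene CTR1, LOC103964928, which averaged 125 CPM in bagged skin and 187 CPM in untreated skin (log2 fold change -0.58, edgeR adjusted p = 0.152). The other is LOC103953238, described as RAN1-like, a copper transporter that receptors need in Arabidopsis, which averaged 93.0 CPM in bagged skin and 146 CPM in untreated skin (-0.65, edgeR adjusted p = 0.0742). EIN2, the central membrane protein of the pathway, averaged 114 CPM in bagged skin and 108 CPM in untreated skin at LOC103934927, and 87.6 CPM in bagged skin and 85.5 CPM in untreated skin at LOC103962536.

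Response factors made up 86 of the 121 tested members and held 9 of the 10 calls, in both directions. Of 162 genes described as ERFs, 81 were tested, 3 rose and 5 fell. Of all tested genes, 0.971% were called higher and 1.69% lower. Of 23 AP2-like factors, relatives of which some have a role in organ growth, 5 were tested and 1 fell. Among the 81 tested ERFs, 56 had a fold change above 0 and 25 below (55 above 0 when scaled by library size alone), with a median of 0.21. Of all 25139 tested genes, 12159 were above 0 and 12980 below (9875 above 0 when scaled by library size alone). The CPM of the groups did not overlap for 26 of them with bagged skin above and for 10 with bagged skin below, beside 10.7% and 11% of all tested genes. Leaving out untreated 3 gave 10 response factors higher and 4 lower. Leaving out bagged 3 gave 1 higher and 4 lower, and leaving out bagged 2, untreated 1 or untreated 2 gave 0 higher and 3 lower in each case. Without bagged 1, none was called, though none of the genes called with all 6 libraries changed direction. Calls over all genes also varied between these fits, as given further below. Between the same groups, summed cork markers were at 26.9 to 60.0 CPM in bagged skin and 231 to 393 CPM in untreated skin, and their part in these calls was not tested.

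**Figure D4:**
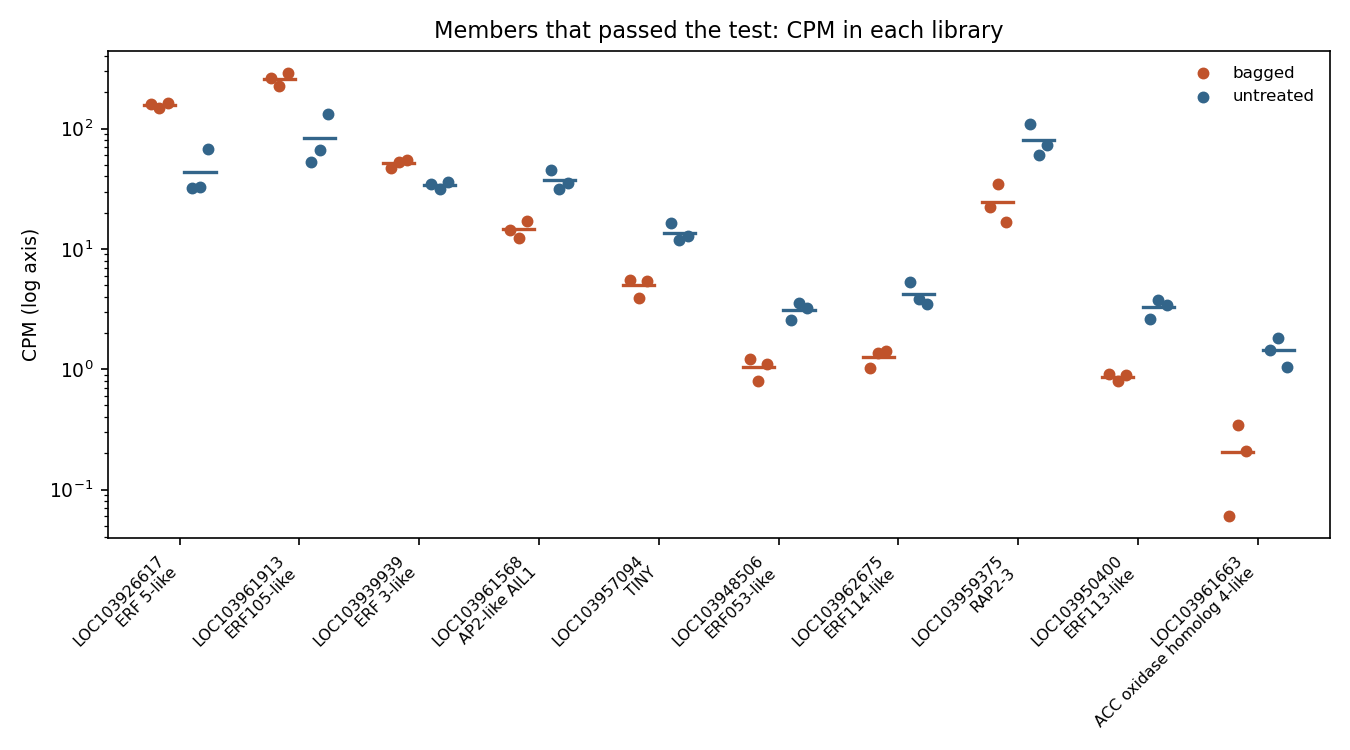
CPM per library (log axis) of the 10 called ethylene genes, with bagged libraries left of untreated ones and group means as lines. In no gene do the groups overlap. Untreated 3 is the untreated library nearest to the bagged ones for all 3 higher genes, but for only 2 of the 7 lower ones.

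The ERF genes that rose were ERF5-like, ERF105-like and ERF3-like. ERF5-like, LOC103926617 (scaffold NW_008988400.1, 306016 to 307295), had 159, 148 and 164 CPM in bagged skin and 32.1, 32.8 and 67.1 CPM in untreated skin. Every bagged library is at least at 148 CPM, and untreated 3 is the highest of the untreated ones. The means were 157 ± 8.21 CPM in bagged skin and 44.0 ± 20.0 CPM in untreated skin (SD, n = 3 each), a log2 fold change of 1.84 ± 0.27 (SE; edgeR adjusted p = 0.0175). Leaving out bagged 1, bagged 2, untreated 1 or untreated 2 ended the call (0.0522 to 0.0689). ERF5 is known in Arabidopsis for responses to fungal chitin and to osmotic stress.

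ERF105-like, LOC103961913 (scaffold NW_008988257.1, 51552 to 53026), had 261, 227 and 290.3 CPM in bagged skin and 52.5, 65.8 and 132 CPM in untreated skin. The groups are well apart, again with untreated 3 nearest to bagged skin. Its means were 259.5 ± 31.6 CPM in bagged skin and 83.4 ± 42.5 CPM in untreated skin (SD, n = 3 each), with a log2 fold change of 1.64 ± 0.32 (SE; edgeR adjusted p = 0.0421). Without untreated 3 the adjusted p was 0.00511, whereas leaving out any other library ended the call (0.0911 to 0.127). ERF105 in Arabidopsis is a cold-induced gene.

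ERF3-like, LOC103939939, changed least of the called genes. It had 46.6, 53.1 and 54.7 CPM in bagged skin and 34.7, 31.4 and 36.1 CPM in untreated skin, tight groups with no overlap. The log2 fold change was 0.60 ± 0.10 (SE; edgeR adjusted p = 0.0246), lost when any library but untreated 3 was left out (0.0507 to 0.0839). In Arabidopsis, ERF3 is a repressor of transcription.

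The ERFs that fell in bagged skin were RAP2-3, TINY, ERF113-like, ERF114-like and ERF053-like. RAP2-3, LOC103959375, belongs to the ERF group that acts in low-oxygen responses in Arabidopsis. It had 22.3, 34.6 and 16.7 CPM in bagged skin and 109, 59.8 and 73.6 CPM in untreated skin. All bagged libraries lie under all untreated ones, with untreated 1 highest. The log2 fold change was -1.72 ± 0.30 (SE; edgeR adjusted p = 0.0321), and the call ended without bagged 1, bagged 3, untreated 1 or untreated 3 (0.0505 to 0.127).

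TINY, LOC103957094, a factor whose overexpression dwarfs Arabidopsis plants, had 5.57, 3.89 and 5.44 CPM in bagged skin and 16.5, 11.8 and 12.8 CPM in untreated skin. The groups do not overlap, and untreated 1 is the highest library. Its log2 fold change was -1.46 ± 0.20 (SE; edgeR adjusted p = 0.0148), and leaving out bagged 1 alone ended the call (0.0534).

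The remaining 3 were low in both groups. ERF113-like LOC103950400 had 0.908, 0.801 and 0.889 CPM in bagged skin and 2.60, 3.76 and 3.41 CPM in untreated skin (log2 fold change -1.90 ± 0.27 SE, edgeR adjusted p = 0.0152). ERF114-like LOC103962675 had 1.03, 1.37 and 1.41 CPM in bagged skin and 5.32, 3.82 and 3.47 CPM in untreated skin (-1.72 ± 0.28, edgeR adjusted p = 0.0229). ERF053-like LOC103948506 had 1.21, 0.801 and 1.10 CPM in bagged skin and 2.55, 3.56 and 3.22 CPM in untreated skin (-1.58 ± 0.28, edgeR adjusted p = 0.0341). None of the 3 has overlapping groups. ERF113-like lost its call without bagged 1, bagged 2 or untreated 2 (0.0569 to 0.0632), ERF114-like without any library but untreated 3 (0.0582 to 0.0888), and ERF053-like without any library (0.0651 to 0.112). ERF113 and ERF114 are known in Arabidopsis for roles in shoot regeneration and shoot branching.

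Among the AP2-like factors, AIL1, LOC103961568, fell. The AIL genes are relatives of AINTEGUMENTA, which promotes organ growth in Arabidopsis. AIL1 had 14.3, 12.2 and 17.2 CPM in bagged skin and 45.4, 31.7 and 35.5 CPM in untreated skin. The means were 14.6 ± 2.46 CPM in bagged skin and 37.5 ± 7.05 CPM in untreated skin (SD, n = 3 each), well separated. Its log2 fold change of -1.36 ± 0.17 (SE; edgeR adjusted p = 0.0117) had the smallest adjusted p of the 10 calls, and leaving out bagged 1 alone ended it (0.057).

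The other AP2-like factors were not called. PLT2, LOC103963467, a root meristem regulator in Arabidopsis, had 19.2, 18.5 and 18.05 CPM in bagged skin and 19.8, 18.2 and 16.7 CPM in untreated skin, which overlap. The gene described as At1g16060, LOC103945391, had 7.08, 10.6 and 12.1 CPM in bagged skin and 11.1, 14.1 and 11.03 CPM in untreated skin. ANT, LOC103951500, named after its values were seen, had 3.87, 3.95 and 7.22 CPM in bagged skin and 13.3, 11.3 and 8.06 CPM in untreated skin, with no overlap (log2 fold change -1.12 ± 0.30 SE, edgeR adjusted p = 0.113; DESeq2 adjusted p = 0.0115). Summed over the 23 AP2-like genes, the authors' FPKM was 27.5 ± 2.67 in bagged skin and 42.2 ± 4.21 in untreated skin (SD, n = 3 each).

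Several response factors missed the threshold but were named because their groups do not overlap, by size of fold change. Their separation was thus fixed by the choice. Of all tested genes, 10.7% had every bagged library above every untreated one. ERF021-like LOC103947945 had 5.69, 4.69 and 7.22 CPM in bagged skin and 0.694, 1.02 and 2.48 CPM in untreated skin (log2 fold change 2.08 ± 0.45 SE, edgeR adjusted p = 0.0588, DESeq2 0.000253). ERF014-like LOC103932979 had 1.03, 0.916 and 1.67 CPM in bagged skin and 0.0579, 0.0509 and 0.31 CPM in untreated skin (3.11 ± 0.65, edgeR adjusted p = 0.0539, DESeq2 0.0102). Untreated 3 was the highest untreated library in each. ERF014-like had 17, 16 and 32 counts in bagged skin and 1, 1 and 5 counts in untreated skin. It passed the low-count filter only through bagged skin. Of the other 3, ERF027-like LOC103960523 and ERF1B-like LOC103967466 were among the members with the widest spread within groups.

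ERF027-like LOC103960523 had 0.605, 0.63 and 6.02 CPM in bagged skin and 0.231, 0.254 and 0.31 CPM in untreated skin, so bagged 3 carries the fold change of 3.17 ± 1.02 (log2, SE; edgeR adjusted p = 0.177). ERF1B-like LOC103931812 had 1.45, 1.43 and 1.41 CPM in bagged skin and 0.0579, 0.102 and 0.806 CPM in untreated skin (2.18 ± 0.74, edgeR adjusted p = 0.198). ERF1B-like LOC103967466 had 40.7, 29.9 and 18.05 CPM in bagged skin and 4.69, 2.24 and 14.4 CPM in untreated skin (2.07 ± 0.61, edgeR adjusted p = 0.145). In both ERF1B-like genes untreated 3 stands above the other two untreated libraries. ERF1B is a direct target of EIN3 in Arabidopsis.

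The ERFs were also grouped by description, after their values were seen, and these counts carry no test. Of all 25139 tested genes, 12159 had a fold change above 0. Bagged libraries lay above all untreated ones for 10.7% of them, and 0.971% were called higher and 1.69% lower. Of genes described as ERF1, ERF1B, ERF2, ERF5, ERF105, ERF106 or ERF107, 13 of 31 were tested. The median log2 fold change was 1.15, 12 of 13 were above 0, 2 were called higher and 10 had bagged libraries above all untreated ones. Of those described as ERF3, ERF4, ERF8 or ERF12, which in Arabidopsis are repressors, all 12 were tested and all 12 were above 0 (median 0.72), with 1 called and 6 without overlap. Both groups kept these counts of fold changes above 0 when scaled by RLE size factors or library size alone. Among ABR1, ERF109, ERF113 and ERF114 genes, 4 of 9 tested were above 0 (median -0.12) and 2 fell.

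TINY and the genes described as ERF010 to ERF060 had 19 tested of 42, with 15 above 0 (14 when scaled by library size alone), a median of 0.54 and 2 called lower. The 6 tested cytokinin response factors had a median of -0.07 and no call. Of the WIN1 and SHINE genes, which promote wax and cutin formation in Arabidopsis, 2 of 8 were tested, and 4 had no count. SHINE 2-like LOC103946697, named after its values were seen, had 4.54, 8.36 and 8.79 CPM in bagged skin and 11.7, 12.3 and 8.86 CPM in untreated skin (log2 fold change -0.60 ± 0.26 SE, edgeR adjusted p = 0.325). Its groups are adjacent, since bagged 3 and untreated 3 nearly touch.

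By the authors' FPKM, the most abundant ERF transcripts of both groups were those of 2 RAP2-12-like genes, low-oxygen regulators like RAP2-3, and a RAP2-4-like gene. RAP2-12-like LOC103948581 averaged 1335 ± 75.9 CPM in bagged skin and 1209 ± 56.6 CPM in untreated skin (SD, n = 3 each; log2 fold change 0.14 ± 0.08 SE, edgeR adjusted p = 0.468). RAP2-12-like LOC103930679 had 723, 811 and 607 CPM in bagged skin and 680.1, 649 and 657 CPM in untreated skin (0.11 ± 0.11). RAP2-4-like LOC103962212, known from light and ethylene responses in Arabidopsis, had 404, 330.1 and 425 CPM in bagged skin and 606, 392 and 509.6 CPM in untreated skin (-0.38 ± 0.17, edgeR adjusted p = 0.326). Per gene length, the authors' FPKM of these 3 averaged 751, 387 and 209.8 in bagged skin and 678, 358 and 272 in untreated skin. None of the 3 was called, and the CPM of the groups overlap for each.

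RAP2-3, the called relative, averaged 22.9 FPKM in bagged skin and 75.2 FPKM in untreated skin in the authors' values. Summed over all 162 ERFs, FPKM came to 3284, 3301 and 3320 in bagged skin and 2552, 2307 and 2804 in untreated skin. The bagged sums are all higher and lie closer together than the untreated ones, at 3302 ± 18.2 in bagged skin and 2554 ± 248 in untreated skin (SD, n = 3 each).

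Many members lie side by side in the genome, with 86 of 253 having another member within 50000 bases, and near-identical copies can share reads. The neighbours of called genes below were chosen after their values were seen. Next to the called ERF105-like gene, ERF2-like LOC103961912 had 5.39, 5.55 and 6.43 CPM in bagged skin and 3.07, 3.002 and 3.22 CPM in untreated skin (log2 fold change 0.90 ± 0.19 SE, edgeR adjusted p = 0.0532). ERF106-like LOC103961914, on its other side, had 9.81, 13.1 and 7.48 CPM in bagged skin and 9.61, 19.1 and 9.42 CPM in untreated skin (-0.33 ± 0.32, edgeR adjusted p = 0.681). The groups of ERF2-like are separate and those of ERF106-like overlap.

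A second ERF105-like gene, LOC103952762, lies on scaffold NW_008988134.1 (505124 to 506478) between ERF107-like LOC103952761 and ERF1-like LOC103952763. It had 178, 158 and 137 CPM in bagged skin and 27.0, 22.1 and 73.1 CPM in untreated skin, without overlap (log2 fold change 1.96 ± 0.42 SE, edgeR adjusted p = 0.0576, DESeq2 0.00835). ERF107-like had 80.6, 124 and 29.8 CPM in bagged skin and 36.0, 39.5 and 57.6 CPM in untreated skin, which overlap. ERF1-like had 4.54, 5.44 and 4.39 CPM in bagged skin and 2.60, 4.38 and 2.97 CPM in untreated skin, which all but touch. ERF2-like LOC103926616, also chosen after its values were seen, does not lie within 50000 bases of the called ERF5-like gene. It had 106, 119 and 53.4 CPM in bagged skin and 27.4, 37.3 and 57.7 CPM in untreated skin (1.19 ± 0.35, edgeR adjusted p = 0.143). Here bagged 3 falls within the untreated range.

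Of 5 tested ERF4 genes, all 5 had a fold change above 0, none was called and 2 had groups that do not overlap. Bagged libraries lay above all untreated ones for 10.7% of all tested genes. Those 2 ERF4 genes, chosen after their values were seen, also had untreated 3 nearest to bagged skin. ERF4-like LOC103935001 had 215, 216 and 257 CPM in bagged skin and 105, 57.2 and 185 CPM in untreated skin (log2 fold change 0.99 ± 0.36 SE, edgeR adjusted p = 0.232), and without untreated 3 edgeR gave an adjusted p of 0.0338. ERF4 LOC103932751 had 45.2, 33.7 and 55.0 CPM in bagged skin and 17.3, 8.45 and 31.4 CPM in untreated skin (1.24 ± 0.42, edgeR adjusted p = 0.196). Bagged skin is higher in every library of both genes. The groups of the remaining ERF4 genes overlap. Among them, ERF4-like LOC103931532 had 27.4, 19.9 and 27.2 CPM in bagged skin and 10.9, 4.99 and 23.2 CPM in untreated skin.

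The widest spread within groups among members was that of ERF109-like and ERF017 genes. ERF109-like LOC103941900 had 32.7, 5.04 and 39.9 CPM in bagged skin and 5.27, 0.0509 and 22.7 CPM in untreated skin. ERF017 LOC103929680 had 27.5, 5.15 and 29.4 CPM in bagged skin and 5.84, 0.0509 and 19.5 CPM in untreated skin. ERF017-like LOC103950248 had 9.44, 2.23 and 7.01 CPM in bagged skin and 3.82, 0 and 12.2 CPM in untreated skin. Replicate 2 is the lowest library of each group for all 3 genes, and none was called (edgeR adjusted p of 0.599, 0.632 and 0.95). ERF109 is wound-induced in Arabidopsis.

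**Figure D5:**
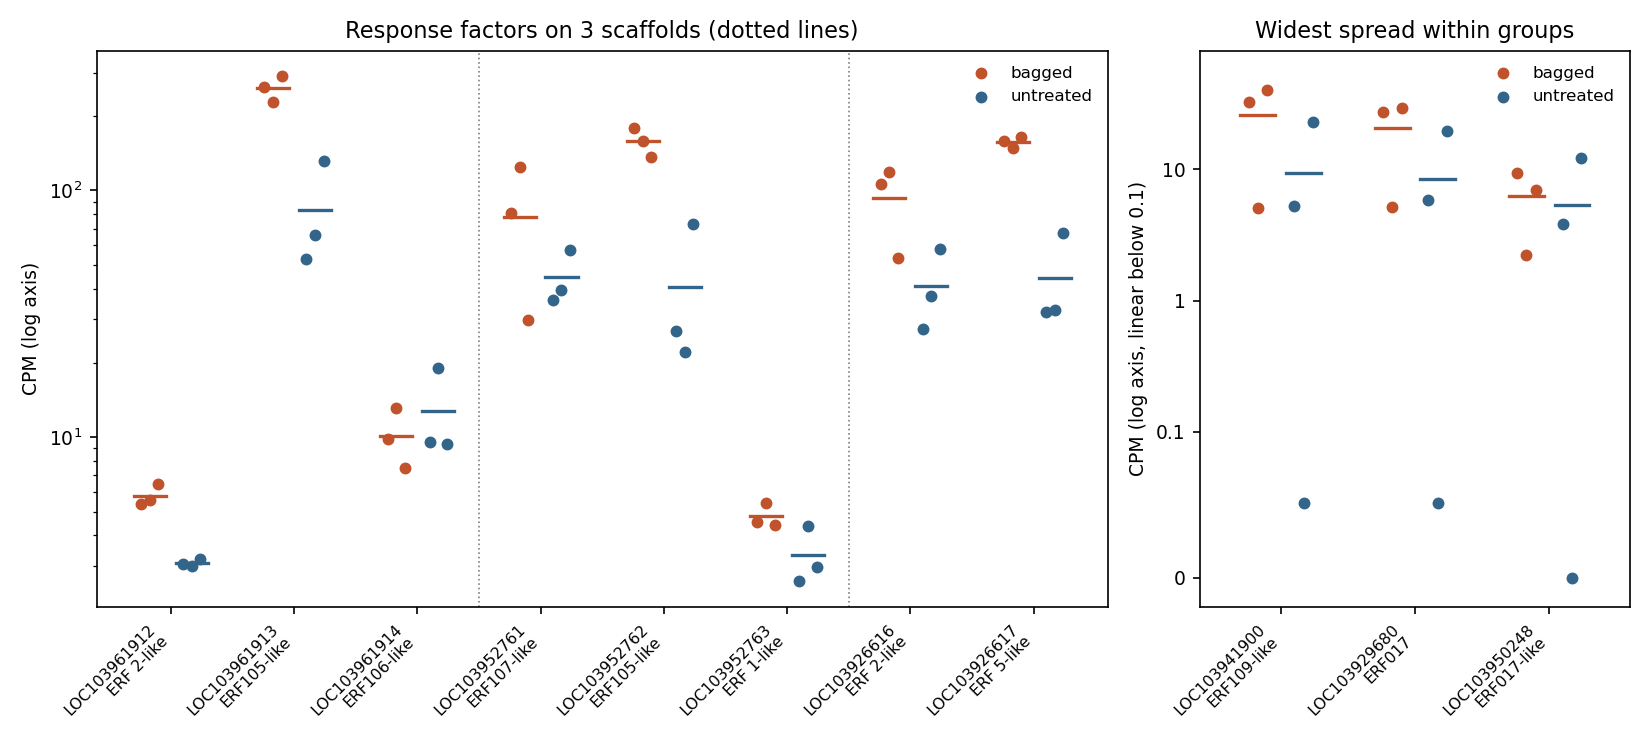
CPM per library of response factors on 3 scaffolds, at left (log axis, dotted lines between scaffolds). At right are the 3 members with the widest spread within groups (log axis, linear below 0.1). Bagged libraries lie left of untreated ones, with group means as lines. ERF5-like and ERF2-like LOC103926616, at the right end of the left panel, do not lie within 50000 bases of each other. Both ERF105-like genes and ERF5-like are higher in every bagged library, and replicate 2 is the lowest of each group at right.

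Of the related AP2-domain factors outside the rule, 18 of 50 were tested, with a median log2 fold change of 0.41 and 1 called. PTI6-like LOC103963311, named for a tomato factor that binds a disease resistance kinase, had 79.7, 74.8 and 67.4 CPM in bagged skin and 26.2, 41.3 and 46.2 CPM in untreated skin, without overlap. Its log2 fold change was 0.96 ± 0.20 (SE; edgeR adjusted p = 0.0497), and 4 of the 6 leave-outs ended the call, over a range of 0.0387 to 0.152.

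The authors' deposited table of the same contrast called 12 members higher and 10 lower at an adjusted p under 0.05 (4.72% of all genes given one there). All 10 of the edgeR calls are among those 22. DESeq2 here called 11 higher and 10 lower (5.98% of all genes given a value). Of the tested members, 38 had an unadjusted p under 0.05 in edgeR, 27 with a fold change above 0 and 11 below. Of all 25139 tested genes, 4003 did, 2065 with a fold change above 0 and 1938 below.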

How the data were processed

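Raw counts per gene, FPKM, gene descriptions, gene length and transcription factor family come from the authors' deposited table, which also holds the authors' log2 fold changes and p-values, raw and adjusted. Reads were aligned with HISAT2, per the submitters' processing notes. Its version, the counter, the strand setting and the genome build were not given in the sources used here; coordinates are those of the deposited table. FPKM, which the authors scaled for depth and gene length, served only to compare levels between genes, and sums of FPKM carry no test.

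Counts were analysed in R 4.3.3 with edgeR 4.0.16 (filterByExpr with a minimum count of 10 and minimum total of 15, TMM scaling, glmQLFit and glmQLFTest, two-sided), bagged against untreated, with Benjamini-Hochberg adjustment over all 25139 tested genes. Of 42933 listed genes, 9356 had no count. CPM are TMM-scaled. The biological coefficient of variation was 20.1%. The script was tested on simulated data. Alternatives were RLE size factors, library size alone, DESeq2 1.42.0, limma-voom (limma 3.58.1), no low-count filter, a filter at 1 CPM in 3 libraries, a replicate block and leaving out each library. Replicates of a group differed by more than counting noise, with chi-square values of 10.1 to 16.5 for each degree of freedom.

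The members, lists and groups were chosen with earlier results of these data known. Named members were all called ones, the 3 tested with the highest average level (log2 CPM) in each family within a role (ACC oxidases, their homologs, the deaminase, receptors, EIN3-like, F-box, ERF and AP2-like genes), and up to 6 uncalled ones whose groups do not overlap, by size of fold change. In the list of other pathway genes, the search words ERF, AP2 and RAN1 were kept to whole words after descriptions were read, because as bare letters they also matched unrelated names. Of the cell type markers, the words for a sucrose-proton symporter and xylem cysteine proteinase matched no gene. Protein and promoter sequences were not used here.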

Additional observations from a re-analysis of the deposited data

How the results depend on the processing

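Signalling genes had no call in either direction under any alternative, and none of the 10 called members changed direction. Of the 36 named members, 11 that were not called changed sign under at least 1 alternative, 6 of them when scaled by library size alone, where the signalling median turned to -0.02. Calls among response factors depended most on the setting: 3 higher rose in number to 6 without a low-count filter or with limma-voom, and 10 with DESeq2. Synthesis genes called lower, 1, became 2 without a filter and with DESeq2 and 0 with limma-voom, and DESeq2 called 1 synthesis gene higher. Over all genes DESeq2 called 756 higher and 745 lower, against 244 and 426. The median log2 fold change of response factors was 0.13 when scaled by library size alone, and that of synthesis genes 0.11 without a filter. Other pathway genes called higher, 1, became 0 with library size alone or the CPM filter, 2 without a filter or with limma-voom, and 3 with DESeq2, and lower, 0, became 3 with DESeq2. The labels give replicate numbers but do not say whether these pair the libraries. Deviations of same-numbered libraries correlated at -0.044, 0.083 and 0.057, and those of differently numbered ones at -0.130 to 0.077. With 3 libraries a group, these values cannot decide whether libraries are paired. With the replicate block, 8 response factors were higher and 4 lower, 1 other pathway gene lower, and over all genes 358 were higher and 370 lower. The block also gave 1 synthesis gene lower, but a different gene: ACC oxidase 1 LOC103948231 was called (0.0107) and homolog 4-like LOC103961663 was not (0.0583). Leaving out 1 library at a time gave, over all genes, between 70 and 306 calls higher and between 135 and 386 lower, 0 to 10 response factors higher and 0 to 4 lower, 0 to 1 synthesis genes higher and 0 lower, and 0 to 3 other pathway genes higher and 0 to 1 lower. Medians then ranged from 0.18 to 0.26 for response factors, -0.03 to 0.09 for signalling and -0.07 to 0.08 for synthesis. Of the 10 calls, 10 remained with DESeq2, 9 with limma-voom, 7 with the replicate block (also lost were ERF114-like LOC103962675 at 0.0538 and ERF053-like LOC103948506 at 0.0749), 0 without bagged 1, 3 without bagged 2, 4 without bagged 3, 3 without untreated 1, 3 without untreated 2 and 7 without untreated 3. Depth limited the ACC synthases, none of which had enough counts for a test.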

Other observations

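ERF022-like LOC103947947, with reads only in bagged skin, fell outside the tested genes. It was named after its values were seen, out of 99 untested response factors. The gene lies next to ERF021-like and had 7, 9 and 41 counts in bagged skin and 0, 0 and 0 counts in untreated skin. Bagged 3 holds most of them. The authors' deposited table gives a log2 fold change of 6.63 for it with an adjusted p of 0.0007. Tested without a low-count filter, edgeR's adjusted p was 0.0541.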
